A study of Mus musculus with 12 samples.

Results

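Insulin-like growth factors (Igf1 and Igf2), their receptors (Igf1r and Igf2r) and their binding proteins (Igfbp2 to Igfbp7) are described here in mouse 3T3 cells exposed to Shld1. The members were all probes annotated with 1 of these 10 gene symbols, which gave 10 of 16969 named genes and 15 of the 38784 probes on the array. Of these, 14 were measured on 2 or more of the 3 arrays in every group and so entered the tests, among 30357 probes tested in all. Igf1 had 3 probes, Igfbp3, Igfbp4 and Igfbp5 had 2 each, and the other 6 genes had 1 each.

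Insulin-like growth factors are secreted peptides related to insulin that promote growth and survival. They act mainly through Igf1r, a receptor tyrosine kinase, whereas Igf2r, the cation-independent mannose 6-phosphate receptor, takes Igf2 up for breakdown in lysosomes. The binding proteins hold the peptides outside the cell and limit or extend their access to Igf1r, and proteases release the peptides again. Cultured fibroblasts are a classical system for this pathway, because they secrete several binding proteins and respond to Igf1 during cell cycle entry.

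3T3 is an established line of mouse embryonic fibroblasts. Each array held RNA of 1 sample in Cy5 beside a commercial mouse reference RNA in Cy3, with 3 arrays each for control cells and for 3 groups given Shld1 (10 nM, 100 nM and 1 µM). Shld1, a small synthetic ligand, stabilizes proteins fused to a destabilizing domain of FKBP12. Whether the cells carried such a fusion, how long they were exposed and what the control cells received is unknown from the sources used here.

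All values are deposited log ratios of sample over reference, taken as log2 and centred on the median of each array, so that 0 is the middle of all probes. The log base and the direction are assumed from the values and the dyes, so that an opposite direction would turn every sign below. A ratio compares the cells with the reference for 1 probe and says nothing of how abundant a transcript is beside another. No dyes were swapped, so a dye effect of a probe and a difference from the reference cannot be told apart. Precision is limited by the number of arrays. Replicates are not described as separate cultures, so the p-values measure only the spread between these samples. Of 14 fibroblast markers, 11 were higher and 1, Pdgfra, was lower in control cells than in the reference. Among all genes 26.5% were higher and 19.6% lower. The per-array mean of the fibroblast markers was 1.03 to 1.63 over the 12 arrays. Of 6 leukocyte markers tested, 5 were lower and none was higher, with Ptprc, the pan-leukocyte antigen, at -2.62 in control cells.

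The members spanned a wide range of ratios, with Igfbp4 far below the reference and Igfbp7, Igfbp6, Igf2r and Igf2 above it. In control cells, 9 of the 14 probes differed from the reference, 5 of them higher and 4 lower (limma, Benjamini-Hochberg adjusted over all probes tested), and 10 had an unadjusted p below 0.05, against 51.3% of all probes. Among all probes tested, 43.3% differed, 23.4% higher and 19.9% lower. Without centring the split of the 9 was 4 higher and 5 lower. By gene, with probes averaged, 6 of the 10 members differed, against 46.1% of all genes, and 7 had an unadjusted p below 0.05, against 53.4%. The median size of the control ratio was 0.62 for the 14 member probes and 0.40 for all probes. At the top stood Igf1 by probe 37239, Igfbp7, Igfbp6, Igf2r and Igf2, and at the bottom Igf1 by probe 30757, Igfbp5 by probe 7728 and both probes of Igfbp4. RNA was taken from whole cultures, so fewer expressing cells and less RNA per cell cannot be told apart.

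**Figure D1:**
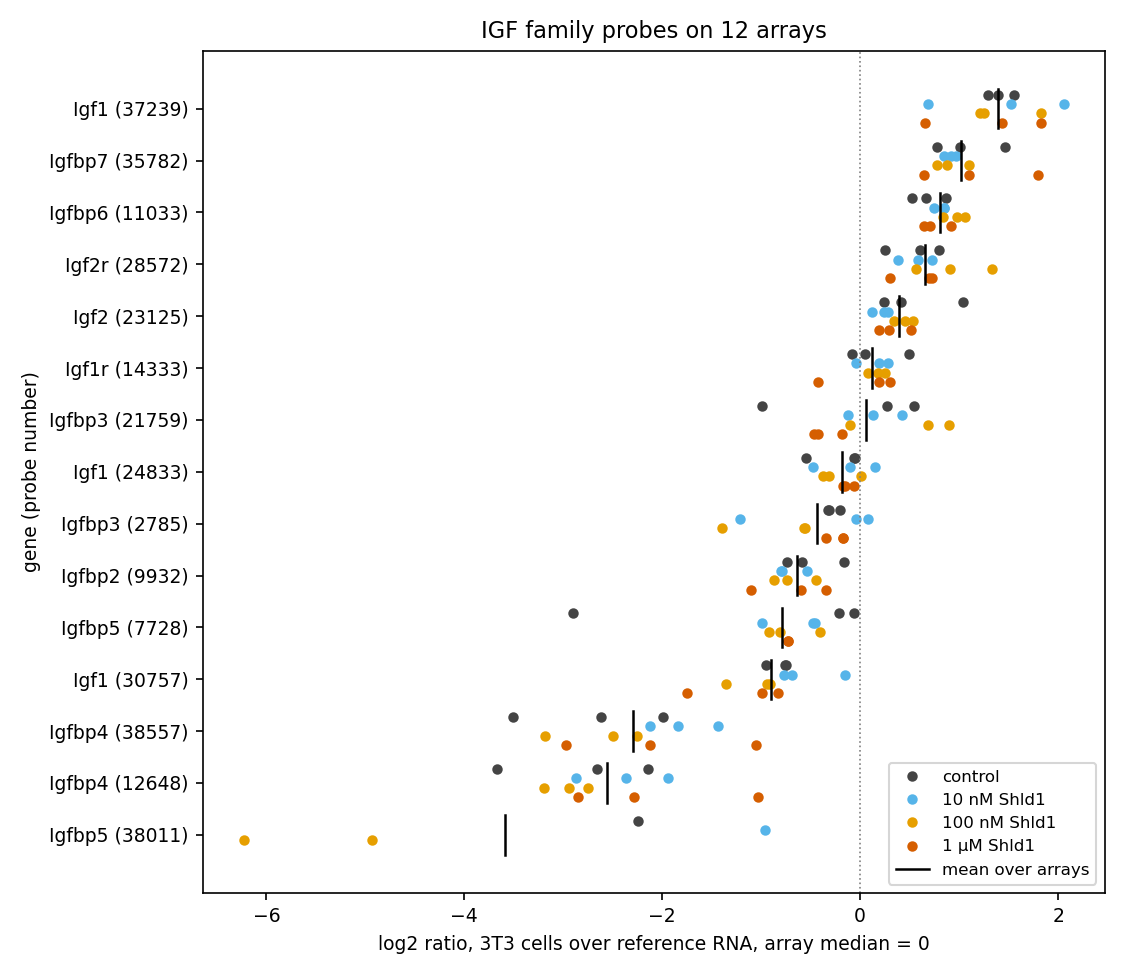
Log2 ratio of sample over reference for all 15 member probes, with 1 point per array, coloured by group (control, then Shld1 at 10 nM, 100 nM and 1 µM), and probes ordered by their mean over arrays, drawn as a bar. Both Igfbp4 probes lie below the other tested probes, and the bottom line is the Igfbp5 probe that had a value on 4 arrays only and was not tested.

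Most steps in the order were smaller than their spread over arrays. Over the 12 arrays the mean ratio was 1.39 ± 0.42 for Igf1 probe 37239, 1.02 ± 0.32 for Igfbp7, 0.80 ± 0.15 for Igfbp6, 0.65 ± 0.29 for Igf2r and 0.39 ± 0.24 for Igf2 (SD, n = 12). Probes near the middle were Igf1r at 0.12 ± 0.23, Igfbp3 probe 21759 at 0.05 ± 0.54, Igf1 probe 24833 at -0.18 ± 0.21 and Igfbp3 probe 2785 at -0.44 ± 0.45. Below these came Igfbp2 at -0.64 ± 0.25, Igfbp5 probe 7728 at -0.79 ± 0.76 (n = 11) and Igf1 probe 30757 at -0.90 ± 0.38, followed by the Igfbp4 probes 38557 and 12648 at -2.30 ± 0.71 and -2.56 ± 0.68. Of the 13 pairs of neighbours in this order, 11 differed by less than the SD of their difference over arrays. The exceptions were Igf2 over Igf1r, by 0.27 ± 0.22 and with the same sign on 11 of 12 arrays, and Igf1 probe 30757 over Igfbp4 probe 38557, by 1.39 ± 0.74 and on 12 of 12.

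Igf1, the ligand of Igf1r made by liver and by many mesenchymal cells, read differently at each of its 3 probes. Probe 37239 read 1.29, 1.39 and 1.55 in control cells, 0.69, 1.53 and 2.06 at 10 nM, 1.21, 1.25 and 1.82 at 100 nM, and 0.65, 1.82 and 1.43 at 1 µM. Probe 30757 read -0.95, -0.76 and -0.75 in control cells, -0.77, -0.68 and -0.16 at 10 nM, -0.91, -1.35 and -0.94 at 100 nM, and -0.83, -1.75 and -0.99 at 1 µM. The first was above the reference and the other below it on all 12 arrays. Probe 24833 stayed near 0, between -0.55 and 0.15, and was below 0 on 10 of the 12 arrays. In control cells probe 37239 was 2.66-fold above the reference (1.41 ± 0.13, SD, n = 3; limma adjusted p = 0.000877) and probe 30757 was 1.76-fold below it (-0.82 ± 0.12; limma adjusted p = 0.00339). Probe 24833 averaged -0.22 ± 0.28 and did not pass (limma adjusted p = 0.243).

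The disagreement between Igf1 probes was larger than any dose difference of the gene. Probe 24833 minus probe 30757 was 0.72 ± 0.40 (SD, n = 12 arrays), positive on all 12 arrays. Probe 24833 minus probe 37239 was -1.57 ± 0.46 and negative on all 12, although the annotation assigns both to the same RefSeq transcript and only probe 30757 to another. With the probes averaged, Igf1 stood at 0.12 ± 0.17 in control cells, a value that none of the 3 probes showed.

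Igf2, the fetal ligand expressed from the paternal allele, was above the reference on every array. It read 1.04, 0.24 and 0.42 in control cells, 0.28, 0.24 and 0.12 at 10 nM, 0.34, 0.45 and 0.54 at 100 nM, and 0.29, 0.52 and 0.19 at 1 µM. Control replicate 1 was the highest of the 12, and the other arrays lay within a narrow band. The control ratio was 1.48-fold above the reference (0.56 ± 0.42; limma adjusted p = 0.00829), and without control replicate 1 it was 0.33 and did not pass (limma adjusted p = 0.0882).

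**Figure D2:**
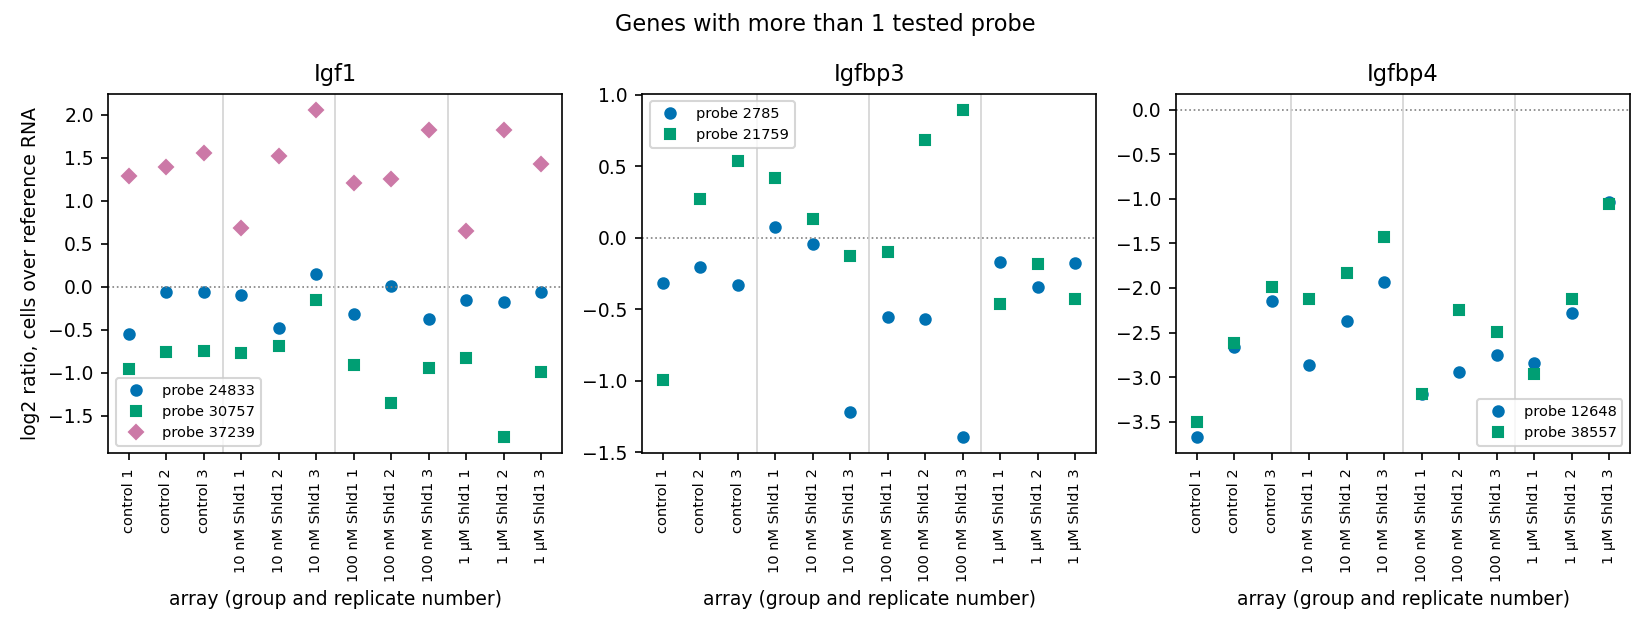
Log2 ratio of sample over reference on each of the 12 arrays for the 3 genes with several tested probes (Igf1, Igfbp3 and Igfbp4), with 1 marker shape and colour per probe and arrays grouped as control, Shld1 10 nM, 100 nM and 1 µM. The 3 Igf1 probes stay apart on every array, while the 2 Igfbp4 probes lie close together.

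Of the receptors, Igf2r was above the reference and Igf1r was near it. Igf2r read 0.80, 0.60 and 0.25 in control cells, 0.38, 0.72 and 0.59 at 10 nM, 0.91, 0.56 and 1.33 at 100 nM, and 0.70, 0.30 and 0.73 at 1 µM. Igf1r read 0.49, -0.08 and 0.05 in control cells, 0.29, 0.19 and -0.05 at 10 nM, 0.08, 0.25 and 0.18 at 100 nM, and -0.43, 0.30 and 0.19 at 1 µM. All 12 Igf2r values were positive, against 9 of 12 for Igf1r, and each receptor's groups overlapped. The control ratio of Igf2r, 0.55 ± 0.28, passed (limma adjusted p = 0.0172) but not without control replicate 1 (0.42; limma adjusted p = 0.121) or replicate 2 (0.52; limma adjusted p = 0.0781). That of Igf1r was 0.15 ± 0.30 and did not pass (limma adjusted p = 0.452).

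Igfbp4, a binding protein known mainly for restraining Igf action until the protease Pappa cleaves it, had the tested probes farthest from the reference. Probe 12648 read -3.67, -2.66 and -2.14 in control cells, -2.87, -2.37 and -1.94 at 10 nM, -3.19, -2.94 and -2.75 at 100 nM, and -2.85, -2.29 and -1.04 at 1 µM. Probe 38557 read -3.50, -2.62 and -1.99 in control cells, -2.12, -1.84 and -1.43 at 10 nM, -3.19, -2.25 and -2.49 at 100 nM, and -2.97, -2.12 and -1.06 at 1 µM. Every value of both probes was below 0, the lowest on control replicate 1 and the highest on 1 µM replicate 3. The control ratio was 7.09-fold below the reference by probe 12648 (-2.83 ± 0.78; limma adjusted p = 4.42e-05) and 6.52-fold below it by probe 38557 (-2.70 ± 0.76; limma adjusted p = 7.49e-05). Only 0.478% and 0.57% of all tested probes had lower control means. The probes differed from each other by -0.26 ± 0.29 over the 12 arrays, less than their distance from the reference.

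Igfbp7 and Igfbp6 were the binding proteins above the reference. Igfbp7, a secreted matrix-associated protein that binds insulin and Igfs weakly, read 1.01, 1.46 and 0.78 in control cells, 0.85, 0.97 and 0.92 at 10 nM, 1.10, 0.88 and 0.77 at 100 nM, and 1.80, 1.10 and 0.65 at 1 µM. Igfbp6, which prefers Igf2 over Igf1, read 0.87, 0.66 and 0.52 in control cells, 0.84, 0.85 and 0.75 at 10 nM, 0.84, 1.06 and 0.98 at 100 nM, and 0.71, 0.92 and 0.64 at 1 µM. Both were positive on all 12 arrays, and Igfbp6 had the smallest SD over arrays of any member, 0.15, with 6.11% of all probes below it. The control ratios were 2.12-fold for Igfbp7 (1.08 ± 0.35; limma adjusted p = 0.000814) and 1.61-fold for Igfbp6 (0.68 ± 0.17; limma adjusted p = 0.000498).

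The bases upstream of the starts of Igfbp4 and Igfbp7 are shown because these binding proteins lay at the low and the high end of the order. Each line gives the 250 bases before the annotated start, 5′ to 3′ on the gene's strand, from RefSeq (GRCm38.p6). Igfbp4 lies at chr11:99040994-99041243 on the plus strand and Igfbp7 at chr5:77408046-77408295 on the minus strand. Capitals mark the TATA motif (letters TATAAA) and the GC-box motif (letters GGGCGG on either strand).
Igfbp4: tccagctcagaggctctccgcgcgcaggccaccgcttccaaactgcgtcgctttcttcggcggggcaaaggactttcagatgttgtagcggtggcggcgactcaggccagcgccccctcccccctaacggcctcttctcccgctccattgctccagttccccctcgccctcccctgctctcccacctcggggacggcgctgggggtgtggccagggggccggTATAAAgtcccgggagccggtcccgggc
Igfbp7: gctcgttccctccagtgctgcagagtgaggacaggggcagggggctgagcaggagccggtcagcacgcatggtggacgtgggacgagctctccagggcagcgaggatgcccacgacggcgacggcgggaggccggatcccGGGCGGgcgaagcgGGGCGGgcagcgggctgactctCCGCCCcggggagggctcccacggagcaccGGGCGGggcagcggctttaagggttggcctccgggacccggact
Igfbp4 held 1 TATA motif, which began 28 bases before the start, and no GC-box motif. Igfbp7 held 4 GC-box motifs and no TATA motif. Searched on both strands in windows of the same length, the TATA motif was present in 12.4% and the GC-box motif in 32.7% of 32851 mouse promoter windows. Another motif searched, with the letters CCAAT, was present in 33.8%. Among the 14 windows of the 10 members, the TATA motif was found in that of Igfbp4 and, on the opposite strand only, in that of Igfbp6. The GC-box motif was found in 6 windows of 5 genes (Igf1r, Igf2, Igf2r, Igfbp2 and Igfbp7). The remaining motif was found in 3 windows, of Igf1, Igf2 and Igfbp6. A match is a description of these letters, and the arrays measured no promoter.

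Igfbp2 and Igfbp5, which are neighbours on chromosome 1 with 0 protein-coding genes between them, both had negative ratios. Igfbp2, a binding protein abundant in fetal tissues and serum, read -0.16, -0.59 and -0.74 in control cells, -0.54, -0.80 and -0.79 at 10 nM, -0.74, -0.87 and -0.45 at 100 nM, and -0.60, -1.11 and -0.35 at 1 µM. Igfbp5, a binding protein that attaches to extracellular matrix, read by probe 7728 -2.90, -0.06 and -0.22 in control cells, -0.46, -0.48 and -0.99 at 10 nM, -0.82, -0.92 and -0.41 at 100 nM, and -0.73 on both measured arrays at 1 µM. All measured values of both were negative, and control replicate 1 stood far below the other Igfbp5 values. The control ratio of Igfbp2, -0.50 ± 0.30, passed (limma adjusted p = 0.0265) but not without control replicate 2 (-0.45; limma adjusted p = 0.118) or replicate 3 (-0.38; limma adjusted p = 0.161). That of Igfbp5 was -1.06 ± 1.60 and did not pass (limma adjusted p = 0.0609). It was -0.14 without control replicate 1, and passed without replicate 2 (-1.56; limma adjusted p = 0.0292) or replicate 3 (-1.48; limma adjusted p = 0.0374).

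The other Igfbp5 probe, 38011, had a value on 4 arrays only and was not tested. It read -2.25 on control replicate 3, -0.96 on 10 nM replicate 3, and -6.23 and -4.93 on 100 nM replicates 1 and 3. On the same 4 arrays probe 7728 lay between -0.99 and -0.22. The Igfbp5 probes read alike on 10 nM replicate 3, at -0.96 and -0.99, and disagreed in size on the others.

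Igfbp3, the main carrier of Igfs in serum, did not pass the test against the reference by either probe. Probe 2785 read -0.32, -0.21 and -0.33 in control cells, 0.08, -0.04 and -1.22 at 10 nM, -0.56, -0.57 and -1.39 at 100 nM, and -0.17, -0.35 and -0.18 at 1 µM. Probe 21759 read -0.996, 0.27 and 0.54 in control cells, 0.42, 0.13 and -0.13 at 10 nM, -0.10, 0.69 and 0.90 at 100 nM, and -0.47, -0.18 and -0.43 at 1 µM. The probes lay on opposite sides of 0 on several arrays, and probe 2785 minus probe 21759 ranged from -2.29 to 0.68 (mean -0.49 ± 0.80, n = 12). The control means were -0.28 ± 0.07 and -0.06 ± 0.82 (limma adjusted p = 0.333 and 0.867).

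No member probe passed the test against control cells at any dose of Shld1. By limma with Benjamini-Hochberg adjustment 0 of 14 passed at 10 nM, 100 nM and 1 µM, where 0%, 0% and 0.00329% of all probes passed. At an unadjusted p below 0.05 the count was also 0 of 14 at each dose, against 2.67%, 3.23% and 4.23% of all probes. The F test over the 3 doses also called 0 of 14, against 0.00329% of all probes, with 0 at an unadjusted p below 0.05 against 3.31%. The median difference of the member probes was 0.05 at 10 nM, 0.01 at 100 nM and 0.04 at 1 µM, and that of all probes 0.00, 0.02 and -0.01.

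**Figure D3:**
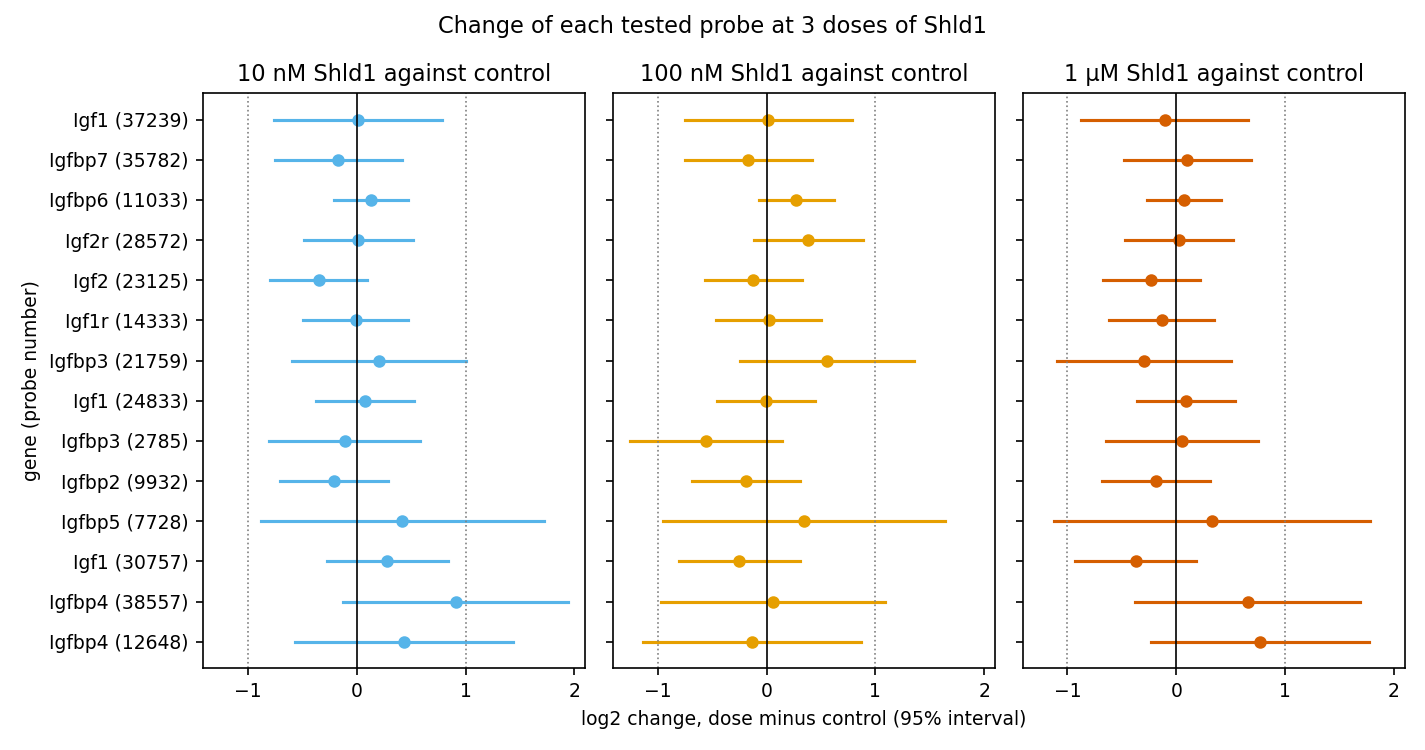
Difference in log2 ratio from control cells for the 14 tested member probes at 10 nM, 100 nM and 1 µM Shld1, with 95% intervals from limma and dotted lines at a doubling in either direction. All intervals include 0, and those of Igfbp5 and both Igfbp4 probes are the widest.

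For most members the arrays bounded the difference within a doubling in either direction. The 95% interval lay within 1 log2 unit of 0 for 10 of 14 probes at 10 nM, 9 at 100 nM and 10 at 1 µM, where 80%, 80.4% and 77.9% of all probes did so. Those outside were both Igfbp4 probes, Igfbp5 and Igfbp3 probe 21759 at every dose, and Igfbp3 probe 2785 at 100 nM. For all probes of Igf1, Igf2, Igf1r, Igf2r, Igfbp2, Igfbp6 and Igfbp7, a change of more than 2-fold was outside the interval at every dose. A p that misses the threshold does not show equal levels.

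Igfbp4 had the largest differences at 1 µM and 10 nM, with wide intervals. At 1 µM probe 12648 averaged -2.06 ± 0.93 at this dose and -2.83 ± 0.78 in control cells, a difference of 0.77 (SE 0.46, 95% interval -0.23 to 1.77; limma adjusted p = 0.999). Probe 38557 differed by 0.66 (SE 0.47) at 1 µM and by 0.91 at 10 nM (SE 0.47, interval -0.13 to 1.94; limma adjusted p = 1). At 10 nM probe 12648 differed by only 0.435 (SE 0.459). At 100 nM probes 12648 and 38557 differed from control by -0.14 and 0.06 (SE 0.46 and 0.47), so the estimates did not run in the order of the doses. A trend over the doses was not tested. Without 1 µM replicate 3 the 1 µM difference of probe 12648 was 0.26, and without control replicate 1 it was 0.35. Without control replicate 1 the 10 nM difference was 0.51 for probe 38557 and 0.012 for probe 12648. Igfbp5 probe 7728 differed from control by 0.42 at 10 nM, 0.34 at 100 nM and 0.33 at 1 µM, and without control replicate 1 by -0.50, -0.57 and -0.59, so that array set its sign.

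Differences of the ligands and receptors were small. The largest difference among them was at Igf2r at 100 nM, 0.93 ± 0.39 at this dose and 0.55 ± 0.28 in control cells, a difference of 0.39 (SE 0.23; limma adjusted p = 1). Igf1 probe 30757 differed by -0.37 at 1 µM (SE 0.26, interval -0.93 to 0.18). Igf2 differed by -0.35 at 10 nM (SE 0.21, interval -0.80 to 0.10), and by -0.11 without control replicate 1.

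At 100 nM the Igfbp3 probes pointed in opposite directions. Probe 2785 averaged -0.84 ± 0.48 at 100 nM and -0.28 ± 0.07 in control cells, a difference of -0.56 (SE 0.32, interval -1.25 to 0.14; limma adjusted p = 1). Its 100 nM and control arrays did not overlap, as in 9.42% of all probes, and it was the only member probe of 14 with this pattern at that dose. At 10 nM and 1 µM no member probe had groups apart, against 7.74% and 8.79% of all probes. Probe 21759 averaged 0.49 ± 0.53 at 100 nM and -0.06 ± 0.82 in control cells, a difference of 0.56 (SE 0.37). Igfbp6 was 0.27 higher at 100 nM than in control cells (SE 0.16; limma adjusted p = 1), with overlapping groups.

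Igfbp4 varied over the 12 arrays more than most probes. Its SD over the 12 arrays was 0.68 and 0.71 for probes 12648 and 38557, and 96.8% and 97.4% of the 25745 probes with a value on every array had a smaller SD. After the arrays were scaled to equal spread these SDs were 0.58 and 0.59. Among the signalling genes and markers, those about as low or lower had unscaled SDs of 0.63 (Htra1), 0.76 (Ptprc) and 0.50 (Krt19, a keratin). The spread of all probes within an array differed as well, from an SD of 0.676 on control replicate 3 to 0.903 on control replicate 1. The 4 arrays labelled replicate 1 averaged -3.15 ± 0.39 for probe 12648, those labelled 2 averaged -2.56 ± 0.30 and those labelled 3 averaged -1.97 ± 0.71 (SD, n = 4 each). The mean of the leukocyte markers varied over arrays too, from -1.77 to -0.74 in control cells, -0.99 to -0.67 at 10 nM, -1.503 to -1.093 at 100 nM and -1.16 to -0.58 at 1 µM. Of 5 epithelial markers tested, 3 were lower than the reference in control cells, against 19.6% of all genes. Epcam and Cdh1, at 0.335 and 0.336, did not pass. The mean of the 4 epithelial markers with a value on every array ran from -2.008 to -1.003 in control cells and -1.32 to -1.05 at 10 nM. It ran from -1.81 to -1.27 at 100 nM and -1.39 to -0.87 at 1 µM. The part of the leukocyte and epithelial markers in the Igfbp4 values was not tested.

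With probes of the same gene left out, those nearest to Igfbp4 in their profile over arrays came from genes of several kinds. Among 19050 probes of other genes, each centred on its own mean, those closest to probe 38557 were Ifi203, an interferon-inducible gene, Hcls1, a leukocyte signalling adaptor, and Krt18, an epithelial keratin. Their root-mean-square differences from it over the 12 arrays were 0.26, 0.27 and 0.28. The closest to probe 12648 were Hcls1 at 0.28, and Nol4l and Car5b, a mitochondrial carbonic anhydrase, at 0.29 each. The difference between the Igfbp4 probes themselves had an SD of 0.29 over the arrays, about the size of these distances. For Igfbp3 probe 21759 they were Cd300lb at 0.30, Ss18l1 at 0.31 and Olfr514 at 0.33.

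Other genes of Igf signalling were also tested against the reference and between doses. Of 44 genes listed (other insulin-family receptors, adaptors, kinases, proteases of the binding proteins, Igf2 mRNA-binding proteins and feedback regulators), 37 were tested. In control cells 10 were higher and 9 lower than the reference, where 46.1% of all genes tested differed, 26.5% higher and 19.6% lower.

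The higher genes included adaptors, kinases, proteases and an mRNA-binding protein. Grb10, an adaptor that binds and restrains Igf1r and the insulin receptor, averaged 2.45 ± 0.63 in control cells, and 99.8% of genes were lower. Its probes 927 and 10346 differed in size, at 3.18 and 1.72 in control cells. Igf2bp3, which binds Igf2 mRNA, averaged 1.80 ± 0.20, the kinase Akt1 1.35 ± 0.29 and the receptor substrate Irs1 1.16 ± 0.13. The Igf2bp3 probes 18463 and 14223 averaged 2.29 and 1.31. Irs4 averaged 1.44 ± 0.80 by its probe measured on all 12 arrays, and its other probe, measured on 11, averaged -0.14 ± 0.38. Smaller ratios were those of the proteases Adamts1 and Htra3, at 0.70 ± 0.41 and 0.48 ± 0.21. Akt2 stood at 0.39 ± 0.20, Socs2 at 0.36 ± 0.21 and the adaptor Shc1 at 0.36 ± 0.07.

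The lower genes included the proteases Htra1 and Pappa2, whereas the listed proteases Adamts1 and Htra3 were higher. Htra1, a secreted serine protease, averaged -3.21 ± 0.12 in control cells, with 0.207% of genes below it, and Pappa2, a protease of Igfbp5, averaged -1.52 ± 0.36. The others were Sos1 at -0.93 ± 0.43, Socs3, a feedback inhibitor, at -0.84 ± 0.34, Pik3r1, a PI3-kinase subunit, at -0.77 ± 0.44, and the insulin receptor-related Insrr at -0.61 ± 0.26. Stat5b stood at -0.59 ± 0.05, the adaptor Gab1 at -0.56 ± 0.19 and Igfals, which carries Igfs with Igfbp3 in serum, at -0.42 ± 0.33. The insulin receptor Insr averaged -0.14 ± 0.15 and did not pass (limma adjusted p = 0.404). Igfbp1, the adjacent gene to Igfbp3, averaged 0.54 ± 0.03 on the 2 control arrays that measured it and did not pass (limma adjusted p = 0.159). Pappa, the protease of Igfbp4, had 1 probe without a value on any array, and H19, Irs2, Igf2bp2 and Rack1 were among the others not tested.

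**Figure D4:**
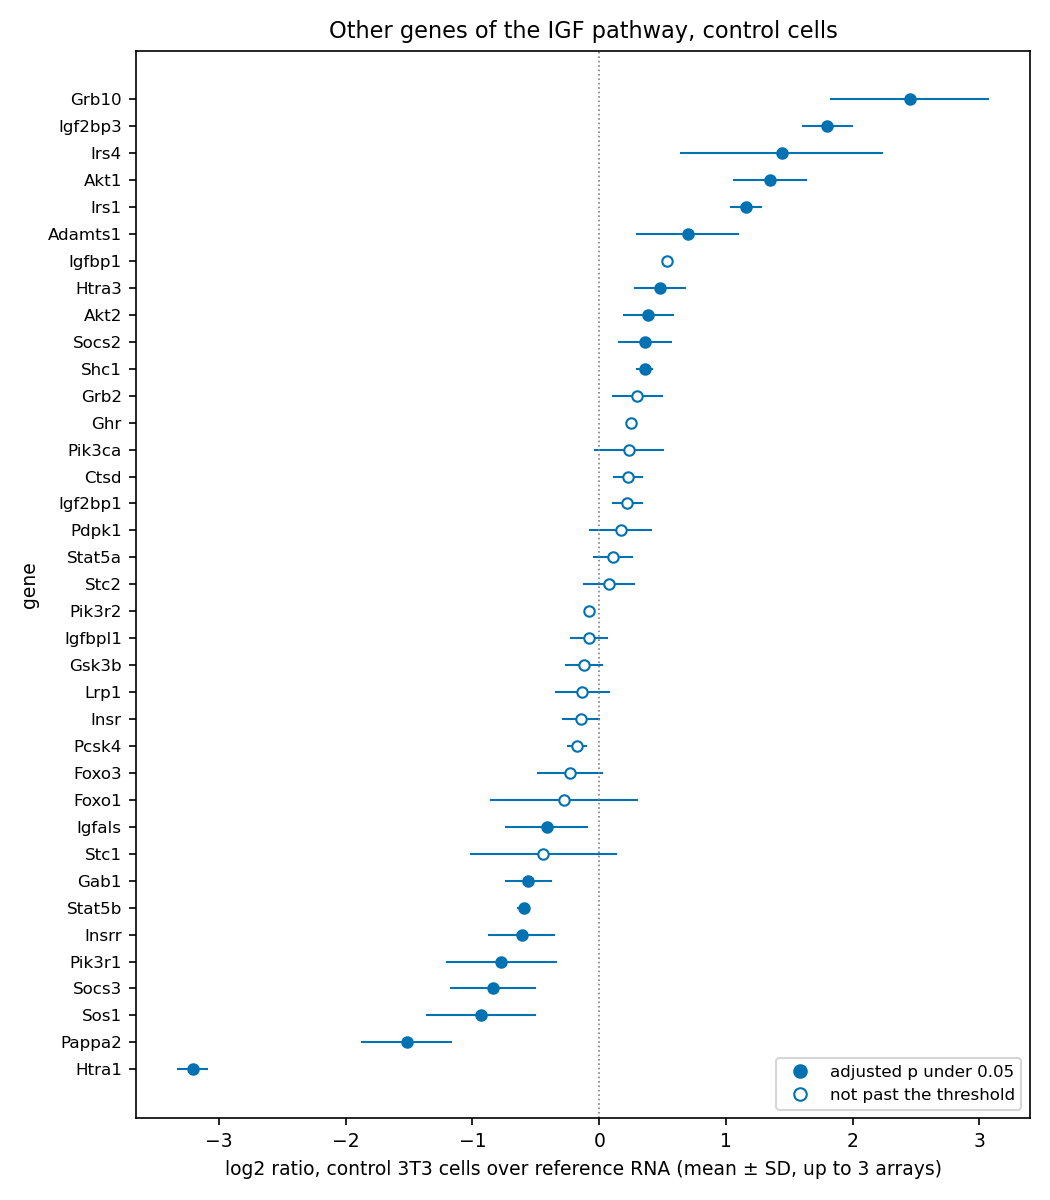
Log2 ratio of control cells over reference for the tested genes of Igf signalling, as the mean with its SD (n = 3 arrays, fewer where a value was blank), ordered by mean, with filled points for genes that passed and open points for the rest. Grb10 and Igf2bp3 lie at the upper end and Htra1 at the lower end.

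At no dose did any of these 37 genes pass, and none passed the F test over the doses, where 0% of all genes passed. At an unadjusted p below 0.05 the counts were 0 at 10 nM, 0 at 100 nM and 1 at 1 µM, against 2.48%, 3.02% and 4.26% of all genes, and in the F test 0 against 2.91%. That gene was Adamts1, with a difference of -0.52 at 1 µM from control cells (SE 0.21). Its 3 probes, 745, 16329 and 29007, differed in size. They averaged 0.98, 0.40 and 0.71 in control cells and 0.58, -0.51 and 0.47 at 1 µM. Irs1 followed with -0.33 (SE 0.15), then Stat5a with -0.28 and Igf2bp3 with -0.37. The median difference over the 37 genes was 0.03 at 10 nM, 0.03 at 100 nM and -0.06 at 1 µM, and over all genes -0.01, 0.02 and -0.02.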

How the data were processed

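RNA of 3T3 cells was hybridised on 12 arrays, 3 in each of 4 groups. The values are the authors' deposited log2 ratios of the Cy5 sample over the Cy3 reference RNA, per the labels' dyes, with base and direction assumed. Arrays were read on an Axon scanner, per the labels' protocols. For background correction, normalization and spot filters, the methods were not given in the sources used here.

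An array lacked a value for 13.3% to 21% of probes, and before centring its median was -0.20 to -0.10. Probes were named from the platform annotation (26173 with 1 symbol, 28 with several, 12583 with none). Each array was centred on its median, and probes with values on at least 2 of 3 arrays of every group were tested with limma 3.58.1 in R 4.3.3, with group as the only term over all 12 arrays and Benjamini-Hochberg adjustment at 0.05. A gene's value, used for the signalling genes and markers, was the mean of its probes with a value on all 12 arrays or, with none, its tested probe with most values. Intervals are 95%. Tested on 5 simulated sets of 1 µM against control with 200 changed among 30357 probes, the fit called 33.2% of 2-fold, 83.2% of 4-fold and 94.4% of 8-fold changes. The adjusted cutoff is looser with that many changes than where few probes change, so these shares are too high for a lone change. The simulated noise was independent between arrays.

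The members and lists were chosen with earlier results of these data known. All member probes are named. Of the signalling genes, those that passed are named, with Insr, Irs1, Igfbp1, Igfals, H19 and the 4 with the smallest p at 1 µM, and the 3 nearest profiles are given for the 3 member probes of largest SD among those with a value on all 12 arrays, which leaves out both Igfbp5 probes. Rack1, Irs2, Igf2bp2, Pappa and the markers Ptprc, Pdgfra, Epcam, Cdh1 and Krt19 are also named. Alternatives were other scalings and probe filters, the replicate number as a block, robust variance, array weights, 1 value per gene, 2-group fits and leaving out each array. Promoter motifs were searched in Python 3.11.15, and plots were made with matplotlib 3.10.9.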

Additional observations from a re-analysis of the deposited data

How the results depend on the processing

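The count of member probes that differed from control cells was 0 at 10 nM, 100 nM and 1 µM and 0 in the F test under every alternative run. With the replicate block it was 0 at each dose too, and the lowest adjusted limma p among members was 0.934 at 1 µM and 1 at 10 nM and 100 nM. The block left 9 member probes apart from the reference. The labels do not say that a replicate number marks a shared batch, although the array numbers in the titles run on within each replicate number. Deviations from the group means correlated over 0.1 in 9 of 18 pairs of arrays with the same number (-0.104 to 0.253). Of 36 pairs with different numbers, 4 did so. Best correlated with an array of their own number were 8 of 12 arrays, all of them labelled 1 or 3. Each array labelled 2 correlated best with an array of another number, and the pairs labelled 2 lay between -0.104 and 0.134. These correlations are a hint from the data and not the design, and pairing was not assumed. With the number as a fixed block, 2 of 14 member probes at 1 µM, both of Igfbp4, and 1 at 10 nM, Igfbp4 probe 38557, had an unadjusted p below 0.05, where 5.16% and 3.68% of all probes did, and 0 did at 100 nM. Within numbers 1, 2 and 3, Igfbp4 at 1 µM minus control was 0.83, 0.38 and 1.11 by probe 12648 and 0.54, 0.50 and 0.93 by probe 38557. At 10 nM the differences were 1.38, 0.78 and 0.56 by probe 38557 and 0.804, 0.296 and 0.205 by probe 12648. At 100 nM those of both probes had mixed signs. The lowest adjusted limma p of a member over all alternatives was 0.785, for Igfbp4 probe 12648 at 1 µM without control replicate 3. The count against the reference was 9 and ranged from 7 to 9 when an array was left out. It was 7 with control arrays alone and 6 of 10 with 1 value per gene. In the fit of control arrays alone, Igf2 and Igfbp2 did not pass (limma adjusted p = 0.0632 and 0.0628). Without centring, Igf2r did not pass (0.40; limma adjusted p = 0.0716) and Igfbp5 did (-1.21; limma adjusted p = 0.0357). Over all probes, the count at 1 µM ranged from 0 to 3. Of 942 values of single probes for the doses, 936 stayed on the same side of the threshold and within the spread between replicates, and 6 moved by more than it, all of them Igf2 and Igfbp5 without control replicate 1, an array whose omission changes the control mean directly. The sign differed in 58, none of them past the threshold. Many of the 942 values could not move, so the count of 936 does not measure stability. Leaving out an array of a group outside a contrast does not change its estimate. Neither does robust variance, nor the fixed block for probes with a value on all 12 arrays. Without intensities, signal over background could not be examined.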
